A study of Mus musculus with 18 samples.

Results

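Ly6a, Ly6c1, Ly6c2 and Ly6e encode small mouse surface proteins, some of them carried by endothelial cells (ECs), the inner lining of blood vessels. The genes were taken by name from a table of 16248 genes in 18 bulk RNA sequencing (RNA-seq) libraries of sorted mouse ECs. Of the 4 genes, Ly6a, Ly6c1 and Ly6e had values and all 3 were tested, while Ly6c2 was not analysed here.

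The ECs were sorted 3 hours after an injection of PBS or of cGAMP, a cyclic dinucleotide that binds and activates the innate immune adaptor STING. Normal ECs were taken from wild-type FVB mice, out of the mammary fat pad. MMTV-PyMT ECs came from breast tumours of FVB mice with the MMTV-PyMT genotype, in which a mammary tumour virus promoter drives a polyoma virus oncogene in the mammary epithelium, so that tumours arise on their own. Implanted ECs came from breast tumours that formed when tumour cells of such mice, briefly cultured, were placed in the fat pad of wild-type FVB mice, so the vessels of these tumours belonged to a wild-type host. All mice were of the FVB strain, the tumour-bearing mice were young adults by the study's methods, and the age of the normal mice is not given in the sources used here. Each of the 6 groups of tissue and treatment had 3 libraries. The sort kept live cells that carried CD31 and lacked CD45.

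Members of the Ly6 family share a compact fold of finger-like loops held together by disulfide bonds, and most of them sit on the outer face of the membrane through a glycosylphosphatidylinositol (GPI) lipid anchor. Ly6a encodes stem cell antigen-1 (Sca-1), used widely to isolate blood stem cells and also carried by the vessels of many mouse organs. Ly6c1 and Ly6c2 are neighbouring copies that together give the Ly6C antigen of monocytes and capillary endothelium. Ly6e encodes a broadly expressed relative known for hindering the entry of coronaviruses. Interferons are known to raise several Ly6 genes.

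In the GENCODE M21 annotation of GRCm38 (mm10), the 4 genes lay within 157 kb of chromosome 15. Ly6e (ENSMUSG00000022587.14) ran on the plus strand at chr15:74955051-74959905. On the minus strand, Ly6a (ENSMUSG00000075602.10) was at chr15:74994877-74998031, Ly6c1 (ENSMUSG00000079018.10) at chr15:75044018-75048830 and Ly6c2 (ENSMUSG00000022584.14) at chr15:75108158-75111970. All 4 are annotated as protein-coding, and values were summed over the exons of each gene.

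The coding sequences show why reads of Ly6c1 need care. The first 270 bases of Ly6c1 and Ly6c2, from the start codon, follow, and capitals mark 7 of the 9 bases at which the copies differ.
Ly6c1: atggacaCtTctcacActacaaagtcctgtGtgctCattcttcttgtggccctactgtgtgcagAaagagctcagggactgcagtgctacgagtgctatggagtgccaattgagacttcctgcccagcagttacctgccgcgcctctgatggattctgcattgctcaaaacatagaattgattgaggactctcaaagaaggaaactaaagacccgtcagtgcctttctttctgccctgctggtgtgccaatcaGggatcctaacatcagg
Ly6c2: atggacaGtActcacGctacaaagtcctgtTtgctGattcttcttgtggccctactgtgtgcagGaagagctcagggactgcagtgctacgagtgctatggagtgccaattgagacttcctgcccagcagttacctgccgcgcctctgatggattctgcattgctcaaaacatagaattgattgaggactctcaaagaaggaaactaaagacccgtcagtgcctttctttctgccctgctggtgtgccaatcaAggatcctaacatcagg
Over the full 393 bases the copies differed at 9 positions (97.7% identical), with no gap. From base 66 of Ly6c1 a run of 188 bases was the same in both. The same stretch of Ly6a, the closest of the other two genes to Ly6c1, is given for comparison.
Ly6a: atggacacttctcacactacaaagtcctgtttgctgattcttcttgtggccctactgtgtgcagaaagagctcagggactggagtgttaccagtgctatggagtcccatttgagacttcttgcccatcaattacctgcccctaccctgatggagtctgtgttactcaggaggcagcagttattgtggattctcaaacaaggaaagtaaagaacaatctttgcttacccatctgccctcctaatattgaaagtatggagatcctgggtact
Ly6a and Ly6c1 were 81.8% identical over their alignment, Ly6e and Ly6a 51.9%, and Ly6e and Ly6c1 48.9%. These sequences are those of the C57BL/6J reference in GENCODE, and FVB alleles were not analysed here.

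A read of 75 bases, the length sequenced, can come from 2 genes where their transcripts share a window of that length. Across all annotated Ly6c1 transcripts 336 of 1764 such windows (19%) also occurred in another gene, 259 of them in Ly6c2 and 77 in Ly6a. For Ly6a 83 of 1311 windows (6.33%) were shared, 77 with Ly6c1 and 6 with Ly6i, its neighbour in the cluster. For Ly6e 0 of 4384 windows were shared. How the counting treated reads that fit several places is not given in the sources used here. Ly6c1 values may therefore miss reads of its own or hold some of Ly6c2 or Ly6a, and Ly6c1 is uncertain to that extent.

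**Figure D1:**
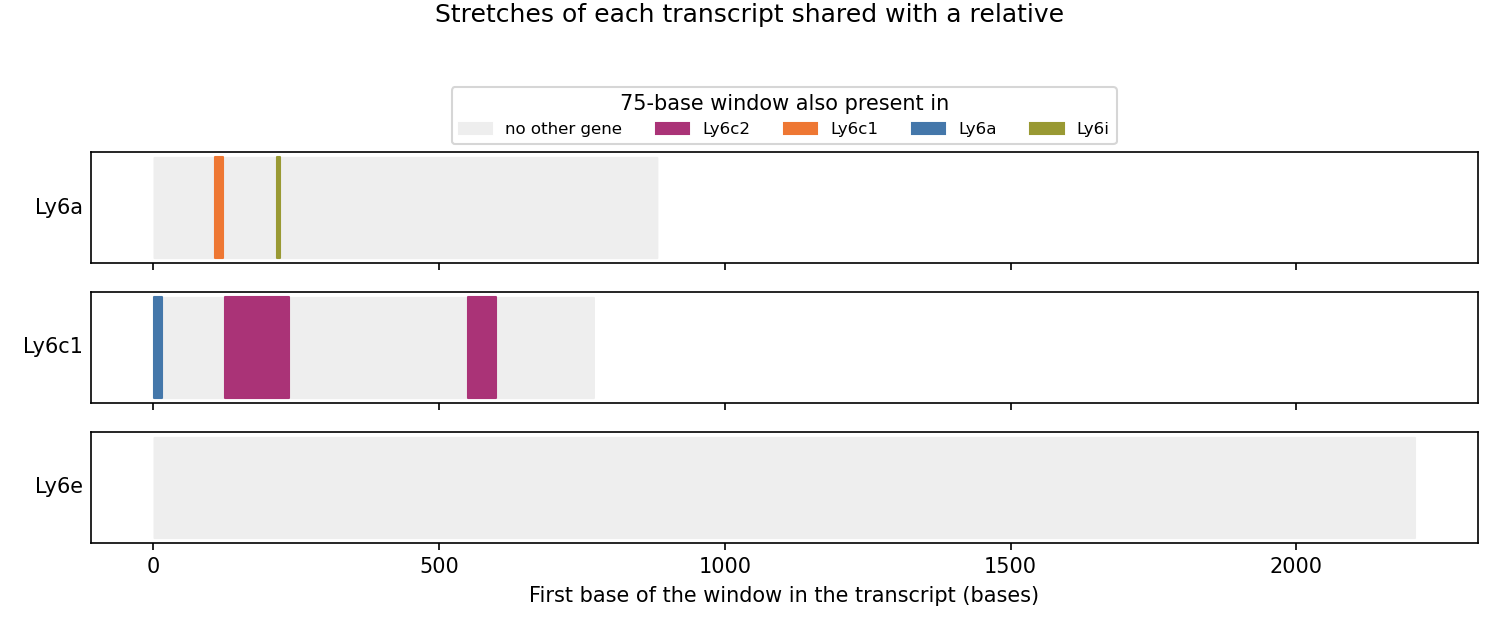
Windows of 75 bases along 1 transcript each of Ly6a, Ly6c1 and Ly6e (x axis, first base of the window), coloured where the same window occurs in a relative and grey where it occurs in no other gene. In the transcripts drawn, 164 of 770 Ly6c1 windows were shared with Ly6c2 and 15 with Ly6a, 21 of 881 Ly6a windows were shared, and none of the 2207 Ly6e windows was.

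Levels are in FPKM, fragments per kilobase of transcript scaled to the depth of the library, which allows genes of different length to be compared within the table. Read counts recovered from these values came to between 9115814 and 12113688 per library, and to between 628 and 9615 for Ly6a, 1172 and 4251 for Ly6c1, and 8029 and 18710 for Ly6e. All 10 endothelial markers were present in every library. Their summed level was lower in MMTV-PyMT PBS (771 to 949 FPKM) than in normal PBS (1169 to 1315 FPKM) and implanted PBS (1109 to 1427 FPKM). The 5 epithelial markers summed to 727 to 792 FPKM in MMTV-PyMT PBS, against 293 to 362 FPKM in normal PBS and 296 to 425 FPKM in implanted PBS. The 5 leukocyte markers summed to 16.2 to 17.6 FPKM in MMTV-PyMT PBS, 62.1 to 105 FPKM in normal PBS and 29.0 to 38.2 FPKM in implanted PBS, and Ptprc, which encodes CD45, averaged 0.287, 4.07 and 0.808 FPKM in the same order. The 5 fibroblast markers summed to 68.7 to 79.6 FPKM in normal PBS, 110 to 174 FPKM in MMTV-PyMT PBS and 234 to 269 FPKM in implanted PBS, and the 5 markers of mural cells, which wrap vessels, to 582 to 714, 191 to 273 and 178 to 208 FPKM. Single fibroblast markers went both ways in the tests described below. In implanted ECs 2 were higher and 2 lower than in normal ECs, and 1 was higher and 2 lower than in MMTV-PyMT ECs. Markers of kinds of endothelium moved with tissue as well. The 6 arterial markers summed to 244 to 263 FPKM in normal PBS, 76.03 to 93.3 FPKM in MMTV-PyMT PBS and 157 to 159 FPKM in implanted PBS, a non-overlapping order, and all 6 were lower in MMTV-PyMT than in normal ECs. The 5 markers of tip-like cells, which lead vessel sprouts, summed to 428 to 502 FPKM in implanted PBS, against 59.5 to 70.7 FPKM in normal PBS and 65.8 to 68.4 FPKM in MMTV-PyMT PBS, and all 5 were higher in implanted ECs than in either. In bulk RNA, fewer cells of a type and less RNA per cell cannot be told apart, and the part of these markers in the results was not tested.

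To ask how the 3 genes stood before treatment, the tissues were compared under PBS. Each gene had its own order of tissues. Ly6a and Ly6c1 were lowest in MMTV-PyMT ECs, whereas Ly6e was lowest in normal ECs, and Ly6a and Ly6e were highest in implanted ECs while Ly6c1 was highest in normal ECs. Differences were tested on log2(FPKM + 1) with limma over 13983 genes, and passed means a Benjamini-Hochberg adjusted p under 0.05. All 3 genes passed in all 3 comparisons, where 56.5% of all genes tested passed between MMTV-PyMT and normal ECs, 48.7% between implanted and normal ECs and 45.5% between implanted and MMTV-PyMT ECs.

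Ly6a in PBS-treated normal ECs was 267, 295 and 291 FPKM in the 3 libraries. In MMTV-PyMT ECs it was 56.6, 48.1 and 45.01 FPKM, and in implanted ECs 508, 345 and 414 FPKM. No library of 1 tissue overlapped those of another. The mean in MMTV-PyMT ECs (49.9 ± 5.99 FPKM, SD, n = 3) was below that in normal ECs (285 ± 15.01 FPKM) by 2.49 on the log2 scale (SE 0.170, limma adjusted p = 1.4e-08), a 5.7-fold difference of means. Only 0.515% of tested genes had a lower value in this comparison. Between implanted (422 ± 81.6 FPKM) and MMTV-PyMT ECs the log2 difference was 3.04 (SE 0.170, adjusted p = 4.84e-09), or 8.47-fold in means, and 99.8% of tested genes had a lower value.

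The excess of Ly6a in implanted over normal ECs was smaller, at 0.55 on the log2 scale (SE 0.170, limma adjusted p = 0.0135). Without implanted PBS library 1, the highest of its group, the difference was 0.41 and did not pass (adjusted p = 0.0771). It also missed the threshold under scaling by the sum of FPKM (0.25), quantile normalization (0.35) and total reads (0.36). The low level in MMTV-PyMT ECs passed against both other tissues under every alternative tried, with log2 values from -2.78 to -1.81 against normal ECs.

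Ly6c1 under PBS was 186, 214 and 232 FPKM in normal ECs. It was 78.1, 64.5 and 64.5 FPKM in MMTV-PyMT ECs, and 129, 124 and 122 FPKM in implanted ECs. The tissues again did not overlap, in the order normal, implanted, MMTV-PyMT. The sums of the arterial markers and of the leukocyte markers both had this order as well, though not each marker did. In implanted ECs 4 of 6 arterial markers were lower and 1 higher than in normal ECs, and 3 were higher and 1 lower than in MMTV-PyMT ECs. Of the 5 leukocyte markers, 2 were lower in implanted than in normal ECs and 1 was higher than in MMTV-PyMT ECs. Against normal ECs the log2 difference was -1.60 in MMTV-PyMT (SE 0.159, limma adjusted p = 6.43e-07) and -0.74 in implanted ECs (SE 0.159, adjusted p = 0.00109). Implanted ECs stood 0.85 above MMTV-PyMT ECs (SE 0.159, adjusted p = 0.000472). All 3 passed under every alternative tried except a 2-fold limit, which the values -0.74 and 0.85 did not reach. With libraries scaled to their endothelial markers the values against MMTV-PyMT ECs were smaller, at -0.91 for MMTV-PyMT minus normal and 0.38 for implanted minus MMTV-PyMT.

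Ly6e under PBS was 216, 210 and 217 FPKM in normal ECs, a narrow spread. In MMTV-PyMT ECs it was 244, 305 and 300 FPKM, and in implanted ECs 463, 360 and 414 FPKM. Every tumour library was above every normal library. The log2 difference from normal ECs was 0.39 in MMTV-PyMT (SE 0.105, limma adjusted p = 0.00487) and 0.93 in implanted ECs (SE 0.105, adjusted p = 2.56e-06). The first of these was 0.11 and did not pass under scaling by the sum of FPKM (adjusted p = 0.406), and it was 1.07 and passed under scaling to the endothelial markers (adjusted p = 0.000383). Implanted ECs stood 0.54 above MMTV-PyMT ECs (adjusted p = 0.000656), which became 0.07 when each library was scaled to its endothelial markers.

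The balance among the genes within a library shifted with tissue, and a ratio of levels in the same library does not depend on how that library was scaled. The ratio of Ly6a to Ly6c1 under PBS was 1.26 to 1.44 in normal ECs, 0.698 to 0.746 in MMTV-PyMT ECs and 2.79 to 3.93 in implanted ECs. Relative to Ly6e, Ly6a stood at 1.24 to 1.41 in normal, 0.1499 to 0.232 in MMTV-PyMT and 0.959 to 1.10 in implanted ECs. The ranges of the tissues did not overlap for either of these ratios. The ratio of Ly6c1 to Ly6e was 0.862 to 1.067 in normal, 0.212 to 0.320 in MMTV-PyMT and 0.280 to 0.344 in implanted ECs. For that ratio the tumour tissues overlapped.

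**Figure D2:**
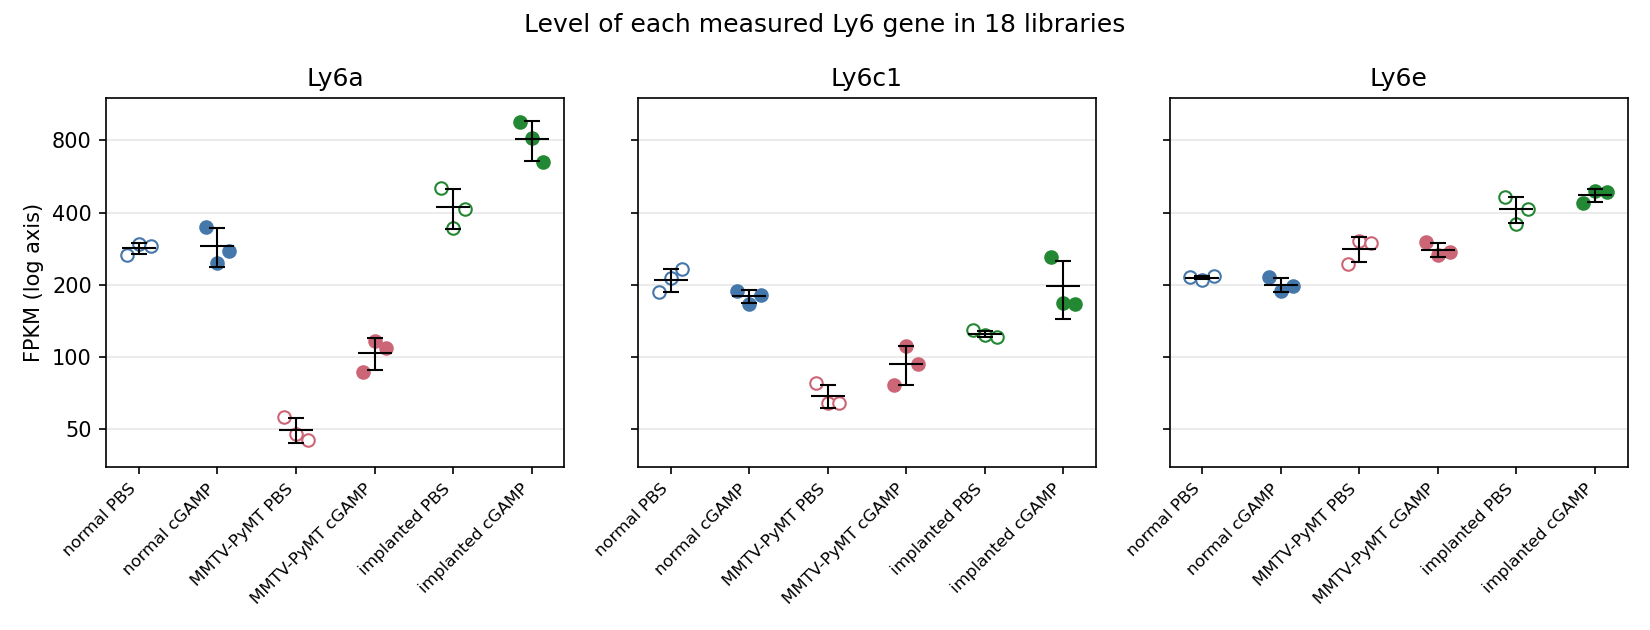
FPKM of Ly6a, Ly6c1 and Ly6e on a log axis in each of the 18 libraries, by tissue (blue normal, red MMTV-PyMT, green implanted) and treatment (open PBS, filled cGAMP), with the mean and SD (n = 3) of each group in black. Ly6a and Ly6c1 were lowest in MMTV-PyMT PBS, and Ly6e was highest in the implanted groups.

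To ask how the genes responded to STING activation, cGAMP was compared with PBS within each tissue. Ly6a rose in both kinds of tumour EC and not in normal ECs. Ly6c1 rose in implanted ECs, and Ly6e did not pass in any tissue. Of the 3 genes, 0 passed in normal ECs, where 31.9% of all genes tested passed (13.7% rose and 18.2% fell). In MMTV-PyMT ECs 1 rose, where 12% of genes passed (7.42% rose and 4.57% fell), and in implanted ECs 2 rose, where 39.1% passed (20.3% rose and 18.8% fell). In normal ECs 0 of the 3 had an unadjusted p under 0.05 in limma, and 0 passed in voom on recovered reads.

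Ly6a after cGAMP was 87.0, 117 and 109 FPKM in MMTV-PyMT ECs, all above the 45.01 to 56.6 FPKM of PBS. The mean rose from 49.9 ± 5.99 to 104 ± 15.6 FPKM (SD, n = 3), 2.09-fold, and the log2 change was 1.05 (SE 0.170, limma adjusted p = 0.000533). Of all tested genes, 97.6% had a lower log2 change. In implanted ECs Ly6a after cGAMP was 954, 822 and 648 FPKM, all above the 345 to 508 FPKM of PBS. The mean went from 422 ± 81.6 up to 808 ± 153 FPKM, 1.91-fold, with a log2 change of 0.93 (SE 0.170, adjusted p = 0.000405). In normal ECs it was 350, 246 and 277 FPKM after cGAMP, on both sides of the 267 to 295 FPKM of PBS, and the log2 change was 0.02 (95% interval -0.34 to 0.38, adjusted p = 0.955).

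After cGAMP, Ly6a in MMTV-PyMT ECs was still below its level in PBS-treated normal ECs, which was higher by 1.45 on the log2 scale (limma adjusted p = 3.44e-06). Implanted ECs after cGAMP had the highest level of any group, 16.2 times the mean of MMTV-PyMT PBS. In the order of the 6 groups, implanted cGAMP, implanted PBS, normal cGAMP, normal PBS, MMTV-PyMT cGAMP and MMTV-PyMT PBS, only normal cGAMP and normal PBS did not differ from their neighbour (adjusted p = 0.955).

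Ly6c1 after cGAMP was 260, 168 and 166 FPKM in implanted ECs, all above the 122 to 129 FPKM of PBS, with library 1 far above the other two. The log2 change was 0.63 (SE 0.159, limma adjusted p = 0.00532), and without library 1 it was 0.41 (adjusted p = 0.0272). Implanted cGAMP library 1 also had the highest sum of endothelial markers, 1874 FPKM against 1131 and 1355 FPKM in the other two. In MMTV-PyMT ECs Ly6c1 was 76.4, 111 and 93.5 FPKM after cGAMP, overlapping the 64.5 to 78.1 FPKM of PBS. That change, 0.42 (SE 0.159), did not pass (adjusted p = 0.0968), but it was 0.56 and passed without MMTV-PyMT cGAMP library 1 (adjusted p = 0.0356). In normal ECs Ly6c1 was 188, 167 and 182 FPKM after cGAMP, against 186 to 232 FPKM after PBS, and the log2 change was -0.23 (95% interval -0.57 to 0.11, adjusted p = 0.293).

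The groups stood in another order for Ly6c1. Normal PBS, implanted cGAMP and normal cGAMP led without differing from their neighbours (adjusted p = 0.549 and 0.565), implanted PBS and MMTV-PyMT cGAMP followed with a difference at each step (adjusted p = 0.0117 and 0.0474), and MMTV-PyMT PBS came last without differing from MMTV-PyMT cGAMP.

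Ly6e after cGAMP was 215, 189 and 198 FPKM in normal ECs, 301, 267 and 273 FPKM in MMTV-PyMT ECs and 438, 491 and 489 FPKM in implanted ECs. These libraries overlapped those of PBS in every tissue. The log2 changes were -0.10 (95% interval -0.32 to 0.13, limma adjusted p = 0.515), -0.01 (95% interval -0.23 to 0.22, adjusted p = 0.976) and 0.20 (95% interval -0.02 to 0.43, adjusted p = 0.141). In implanted ECs this value was -0.07 under scaling by the sum of FPKM, -0.12 under total reads and -0.33 under quantile normalization, the last of which passed (adjusted p = 0.0149). The groups of Ly6e kept the order implanted, MMTV-PyMT, normal, with a difference between tissues (adjusted p = 0.000656 and 0.00588) and none between treatments.

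Among the comparisons of cGAMP with PBS within a tissue, scaling mattered most for implanted ECs. Relative to total recovered reads, the deposited scale was 1.21 to 1.37 in implanted cGAMP libraries, 1.002 to 1.043 in implanted PBS and 0.868 to 0.926 in normal PBS. The FPKM of implanted cGAMP libraries were thus above what their total reads alone would give. With the deposited scale the median of all tested genes in implanted ECs moved by -0.01 between treatments, and with total reads by -0.34. The Ly6a change in implanted ECs was 0.66 under the sum of FPKM and 0.62 under total reads, both of which passed, and 0.28 under quantile normalization, which did not (adjusted p = 0.162). Ly6c1 in implanted ECs did not pass under these 3 scalings (0.36, 0.31 and 0.14). Set against the median of all genes, the total-read values were 0.96 for Ly6a, 0.65 for Ly6c1 and 0.23 for Ly6e. In MMTV-PyMT ECs the Ly6a response passed under every alternative tried, between 0.88 and 1.17.

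**Figure D3:**
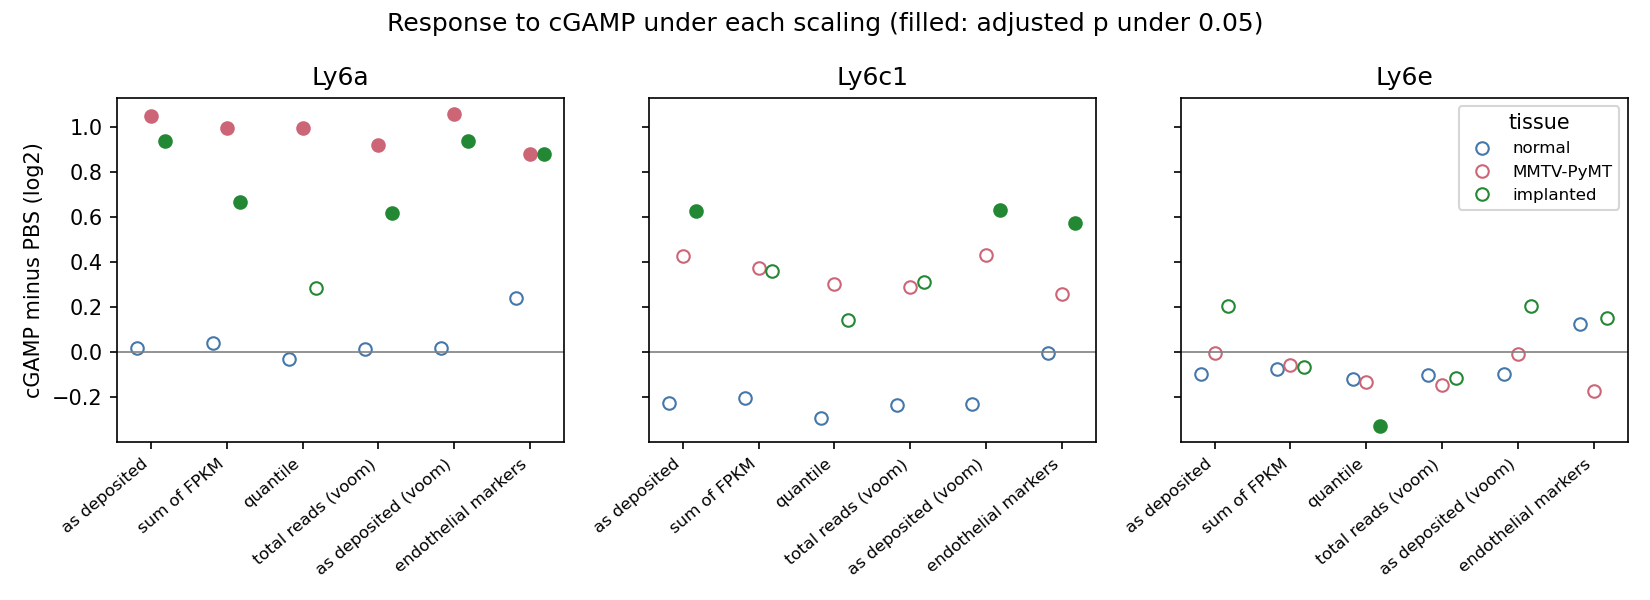
The log2 change from PBS to cGAMP of each gene (y axis) by tissue under 6 ways of scaling the libraries, filled where the adjusted p was under 0.05. Ly6a in MMTV-PyMT ECs passed under all of them, Ly6a in implanted ECs fell to 0.28 under quantile normalization, and Ly6e in implanted ECs changed sign.

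Markers of other cells were set beside these responses. For the counts below, 20.3% of all tested genes rose in implanted ECs and 7.42% in MMTV-PyMT ECs. In implanted ECs the leukocyte markers summed to 29.0 to 38.2 FPKM after PBS and to 71.7, 137 and 46.1 FPKM after cGAMP, and 1 of 5 rose. The 9 monocyte and macrophage markers present reached 504 FPKM in implanted cGAMP library 2, against 147 and 169 FPKM in the other two and 124 to 192 FPKM after PBS, and 2 of the 8 tested rose. That library had neither the highest Ly6a (822 FPKM) nor the highest Ly6c1 (168 FPKM) of its group. Of the 5 neutrophil markers only Csf3r was analysed here, at 0.0887 to 1.62 FPKM as group means. In MMTV-PyMT ECs, where Ly6a also rose, the leukocyte markers summed to 16.2 to 17.6 FPKM after PBS and 18.8 to 24.7 FPKM after cGAMP, and none of the 5 passed. The monocyte and macrophage markers there summed to 101 to 120 FPKM after PBS and 127 to 154 FPKM after cGAMP, without overlap, and 1 of the 8 tested rose. These sums do not stand for each marker. The median log2 change there was -0.14 for the 5 leukocyte markers and -0.15 for the 8, beside -0.04 for all genes. The 4 markers of venous endothelium summed to 101 to 136 FPKM after PBS and 218 to 267 FPKM after cGAMP in MMTV-PyMT ECs, also without overlap, and 2 rose. In implanted ECs the venous markers summed to 91.4 to 142 FPKM after PBS and 114 to 175 FPKM after cGAMP, and 2 rose. In MMTV-PyMT ECs the epithelial markers summed to 727 to 792 FPKM after PBS and to 499 to 700 FPKM after cGAMP. The endothelial markers of that tissue summed to 771 to 949 and 838 to 1131 FPKM. The fibroblast markers summed to 110 to 174 FPKM after PBS and 120 to 163 FPKM after cGAMP in MMTV-PyMT ECs, and none of the 5 passed. In implanted ECs they summed to 234 to 269 FPKM after PBS and to 489, 602 and 253 FPKM after cGAMP, and 4 of 5 rose, so that fibroblast markers moved with Ly6a and Ly6c1 there. Library 3 had the lowest fibroblast sum of the cGAMP libraries and also their lowest Ly6a (648 FPKM) and Ly6c1 (166 FPKM), both above all PBS libraries. In normal ECs the arterial markers summed to 244 to 263 FPKM after PBS and 113 to 148 FPKM after cGAMP, without overlap, and all 6 fell. Of these 6 markers, 1 fell in MMTV-PyMT ECs and 3 fell in implanted ECs. Among all tested genes 18.2%, 4.57% and 18.8% fell in normal, MMTV-PyMT and implanted ECs. The part of these markers in the responses was not tested.

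Whether the response differed between tissues was tested directly. The cGAMP effect on Ly6a was 1.03 larger on the log2 scale in MMTV-PyMT than in normal ECs (SE 0.240, limma adjusted p = 0.0161; 8.37% of genes passed) and 0.92 larger in implanted than in normal ECs (SE 0.240, adjusted p = 0.0137; 18.6% of genes passed). Between the tumours it differed by -0.11 (95% interval -0.62 to 0.40, adjusted p = 0.831; 11.1% of genes passed). For Ly6c1 the effect was 0.86 larger in implanted than in normal ECs (SE 0.225, adjusted p = 0.0141). The difference of 0.65 between MMTV-PyMT and normal ECs did not pass (SE 0.225, adjusted p = 0.0836), and none passed for Ly6e. With libraries scaled to their endothelial markers, the differences became 0.64 and 0.64 for Ly6a and 0.58 for Ly6c1, and none of the 3 passed (adjusted p = 0.195, 0.207 and 0.0904). Under scaling by the sum of FPKM and under quantile normalization, no difference between implanted and normal ECs passed either. The comparisons with normal ECs share the same normal libraries. With a 2-fold limit added, 0 of the 3 genes passed between implanted and normal ECs (4.68% of genes) and 0 in the cGAMP comparison of implanted ECs (7.22%).

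After cGAMP, the tissues kept most of their differences. Ly6a differed from normal ECs by -1.46 in MMTV-PyMT and by 1.47 in implanted ECs, and both passed (limma adjusted p = 5.11e-06 and 2.17e-06; 50.8% and 56.1% of genes passed). Ly6c1 in implanted ECs, which differed from normal by -0.74 under PBS, did not differ from normal ECs by the test after cGAMP (0.11, 95% interval -0.22 to 0.45, adjusted p = 0.565). That value was -0.48 under scaling by the sum of FPKM, -0.46 under quantile normalization and -0.39 under total reads, and each passed as lower. Ly6e stood 0.48 above normal in MMTV-PyMT and 1.23 above normal in implanted ECs (adjusted p = 0.00134 and 8.09e-08), and the first was 0.13 and did not pass under scaling by the sum of FPKM (adjusted p = 0.344). Between implanted and MMTV-PyMT ECs, where 50.9% of genes passed, all 3 genes were higher in implanted ECs. For Ly6e that difference, 0.75, became 0.22 under quantile normalization and 0.39 under endothelial scaling, and passed under neither (adjusted p = 0.0837 and 0.158). With a 2-fold limit added, 1 of the 3 passed between MMTV-PyMT and normal ECs after cGAMP (10.4% of genes), and under PBS 1 passed between implanted and MMTV-PyMT ECs (7.33%) and 0 between implanted and normal ECs (11.5%).

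The wider family gave the setting. Of 35 other listed genes with a Ly6 or urokinase receptor (uPAR) domain, 10 were in the table and 9 were tested. After cGAMP 1 rose in each tissue, and in each it was Plaur, the receptor for the protease urokinase. Among all tested genes 13.7%, 7.42% and 20.3% rose in normal, MMTV-PyMT and implanted ECs, and 18.2%, 4.57% and 18.8% fell. Plaur averaged 6.31 ± 0.901 FPKM after PBS and 25.2 ± 4.44 FPKM after cGAMP in normal ECs (SD, n = 3). The means were 6.95 ± 1.70 and 21.7 ± 2.24 FPKM in MMTV-PyMT ECs, and 14.4 ± 1.60 and 46.4 ± 16.8 FPKM in implanted ECs. Its log2 changes were 1.83, 1.53 and 1.57 (limma adjusted p = 8.98e-06, 7.57e-05 and 1.65e-05). Cd59a, which encodes an inhibitor of the complement membrane attack complex, fell by 0.32 in normal ECs and by 0.25 in implanted ECs (adjusted p = 0.0159 and 0.0441). For normal, MMTV-PyMT and implanted tissue in turn, the 9 had a median of -0.02, -0.06 and 0.12, beside -0.04, -0.04 and -0.01 for all genes.

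**Figure D4:**
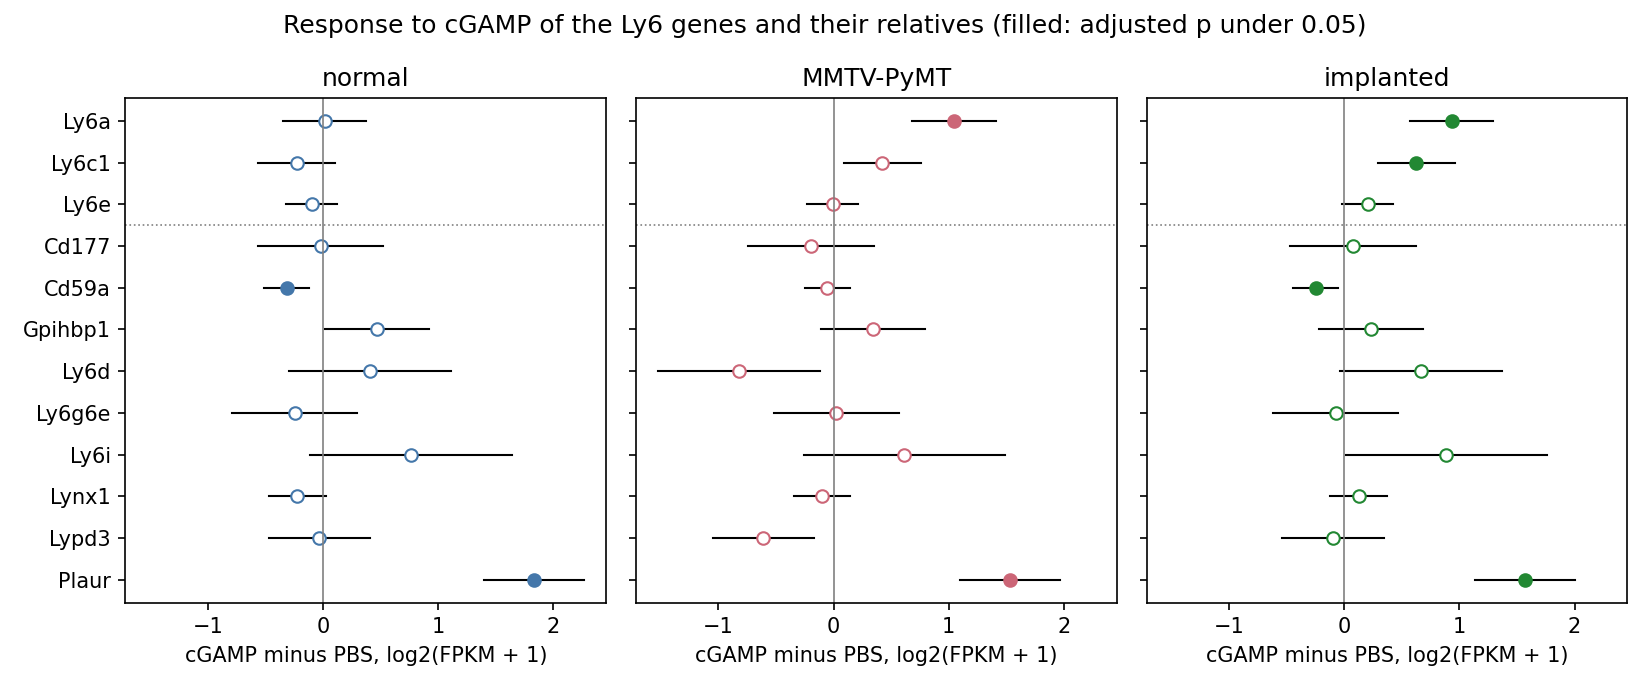
The log2(FPKM + 1) change from PBS to cGAMP with its 95% interval for the 3 Ly6 genes (above the dotted line) and 9 relatives in normal, MMTV-PyMT and implanted ECs, filled where the adjusted p was under 0.05. Plaur passed in all 3 tissues, whereas Ly6a passed in the tumour tissues and Ly6c1 in implanted ECs.

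Along chromosome 15, 17 of the listed genes spread over 885 kb, and 7 of them were in the table. Ly6i, which lies between Ly6e and Ly6a, was low in normal ECs (0.928 ± 0.111 FPKM under PBS) and MMTV-PyMT ECs (0.234 ± 0.0950 FPKM) and reached 7.51 ± 3.67 FPKM in implanted ECs. Its changes with cGAMP did not pass in any tissue, and part of its sequence is shared with Ly6a. Gpihbp1, at the far end, encodes the capillary anchor of lipoprotein lipase and under PBS had a mean of 32.3 ± 5.26 FPKM in normal ECs, 36.3 ± 3.32 FPKM in MMTV-PyMT ECs and 66.9 ± 10.2 FPKM in implanted ECs. In this cluster, calls in the cGAMP comparisons were made for Ly6a and Ly6c1 and for none of the other 5 genes analysed. Of all genes tested, 31.9% passed for normal tissue, 12% for MMTV-PyMT tumours and 39.1% for implanted tumours. Beside these shares, 5 genes are too few to tell whether the response was confined to Ly6a and Ly6c1. At the low Ly6i levels of normal and MMTV-PyMT ECs, the log2(FPKM + 1) scale also understates a change.

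**Figure D5:**
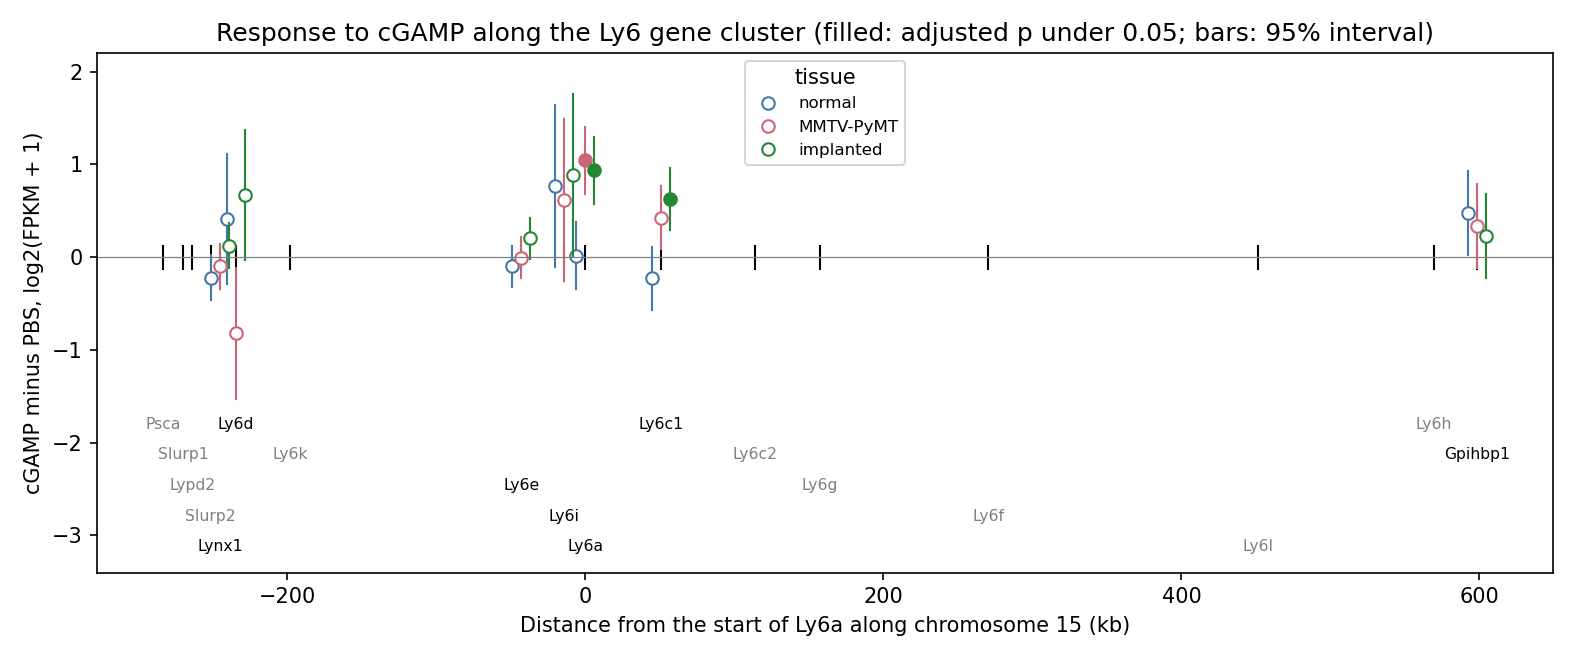
The log2(FPKM + 1) change from PBS to cGAMP with its 95% interval (y axis) for the analysed genes of the Ly6 cluster, placed by the distance of their start from that of Ly6a (x axis, kb), for 3 tissues, drawn slightly apart. Ticks on the zero line mark all 17 listed genes, with names in grey for those not analysed here, and filled points (adjusted p under 0.05) occur at Ly6a and Ly6c1.

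Genes that add the GPI anchor were described as a list of 28, of which 26 were tested. After cGAMP 1 was higher and 7 were lower in normal ECs, 1 was higher in MMTV-PyMT ECs, and implanted ECs had 4 higher and 4 lower. Among all tested genes the shares were 13.7% higher and 18.2% lower in normal ECs, 7.42% higher in MMTV-PyMT ECs, and 20.3% higher and 18.8% lower in implanted ECs. Among the 7 were Pigh (-0.84), Pigq (-0.54), Pigg (-0.71) and Pigs (-0.59), which encode parts of the enzymes that build the anchor and transfer it to proteins. The median of the list was -0.20 for normal ECs and -0.12 for both kinds of tumour EC.

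Interferon signalling genes changed far more than the Ly6 genes. Of 25 listed, all tested, 20 were higher and 2 lower in normal ECs after cGAMP, 20 were higher in MMTV-PyMT ECs, and implanted ECs had 21 higher and 1 lower, with median log2 changes of 2.39, 2.80 and 2.25. Cxcl10, a chemokine that attracts T cells, rose in normal, MMTV-PyMT and implanted ECs by 7.67, 7.73 and 6.07 on the log2 scale. The antiviral gene Rsad2 rose by 6.64, 7.49 and 6.96, and Mx1, also antiviral, by 4.04, 4.91 and 5.69. The response of normal ECs in this list stood beside a Ly6a change of 0.02. Under PBS, 21 of the 25 were higher and 1 lower in implanted than in normal ECs, where 25% of all genes were higher and 23.6% lower. Between MMTV-PyMT and normal ECs 2 were higher and 12 lower, where 29.8% of all genes were higher and 26.6% lower.

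The region just before the Ly6c1 start was searched for interferon response motifs, since Ly6c1 rose in implanted ECs. It is printed 5′ to 3′ from RefSeq on GRCm38.p6, chr15:75048838-75049087, minus strand, with capitals at the only match.
Ly6c1 upstream: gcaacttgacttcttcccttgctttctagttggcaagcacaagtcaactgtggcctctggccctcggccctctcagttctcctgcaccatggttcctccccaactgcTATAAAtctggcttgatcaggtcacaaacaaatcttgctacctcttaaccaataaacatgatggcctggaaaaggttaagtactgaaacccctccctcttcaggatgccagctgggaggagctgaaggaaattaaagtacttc
The interferon-gamma activated sequence motif TTCNNNGAA and the core of the interferon-stimulated response element (GAAA, 2 bases of any kind, GAAA), searched on both strands, had 0 matches in these 250 bases, where 7.02% and 2.98% of 32851 RefSeq promoter regions of that length held 1. The TATA motif TATAAA was present once, from base -143, as in 12.4% of the regions. A window without a match says only that these letters are absent from it.

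Across the 18 libraries the genes whose log2(FPKM + 1) followed each Ly6 gene most closely were named as a description, and libraries of a group share its tissue and treatment. For Ly6a they were Sipa1l1 (Pearson r = 0.961), Tnfrsf14 (0.958), Ccn3 (0.956), Il2rg (0.956) and Pcdh19 (0.955). Tnfrsf14, a receptor of the tumour necrosis factor family, averaged under PBS 6.64 FPKM in normal ECs, 2.27 FPKM in MMTV-PyMT ECs and 8.29 FPKM in implanted ECs. For Ly6c1 they were Rapgef2 (0.986), Epb41l2 (0.979), Map4 (0.978), S1pr1 (0.977) and Arhgap17 (0.976). S1pr1, the main sphingosine-1-phosphate receptor of endothelium, averaged 200.1, 63.9 and 133 FPKM in the same order, close to the order and size of Ly6c1. For Ly6e they were Slc2a1 (0.967), Bak1 (0.966), Ero1l (0.965), Lif (0.960) and Itm2c (0.960). Slc2a1, the glucose transporter GLUT1, averaged 20.7, 31.6 and 62.9 FPKM. Among the 3 genes themselves, Ly6a and Ly6c1 had r = 0.831, Ly6a and Ly6e 0.421, and Ly6c1 and Ly6e -0.10.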

How the data were processed

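Sorted ECs were profiled by bulk RNA-seq in 6 groups of 3 libraries, taken from the sample titles. Per the labels and the study's methods, a directional kit was used, paired 75-base reads were aligned to mm10 with STAR 2.7 and reads were counted with HTSeq, and the authors deposited FPKM values. The scaling behind the FPKM, the strand setting and the handling of reads with several fits are not given in the sources used here. Genes with at least 1 FPKM in at least 3 libraries (13983 of 16248) entered 1 linear model of log2(FPKM + 1) with a mean per group, fitted with limma 3.58.1 (trend, 2-sided) in R 4.3.3, and p-values were adjusted over all genes tested. A fold change on this scale understates the change of low genes. FPKM were whole multiples of a per-read step for 15779 genes (97.1%, within 0.05 reads in every library), which gave recovered reads for voom. The script was tested on simulated data.

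The 4 genes and the gene lists were chosen with earlier results of these data known. Named were the Ly6 genes in every library, relatives that passed in a cGAMP comparison, up to 4 genes of another list with the smallest adjusted p in a comparison, and the 5 genes with the highest correlation to each Ly6 gene. Ly6i, Gpihbp1, Ptprc and Csf3r were named after their values were seen. The study's description gives 3 mice a group from 3 independent experiments. Which library came from which experiment is not given in the sources used here, so an experiment could not be a term in the model. Alternatives are listed in the closing section. Of the gene names, 19 had been turned into dates.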

Additional observations from a re-analysis of the deposited data

Results flagged for a closer look

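In 3 results the response to cGAMP differed between tissues by the test of the difference itself. For Ly6a the log2 change was 1.03 larger in MMTV-PyMT than in normal ECs (limma adjusted p = 0.0161) and 0.92 larger in implanted than in normal ECs (adjusted p = 0.0137). For Ly6c1 it was 0.86 larger in implanted than in normal ECs (adjusted p = 0.0141). These results depended on the processing. Among 10 alternatives of scaling, filter and model, the first passed in 9 and each of the implanted results in 7. The implanted values went down to 0.31 for Ly6a and 0.44 for Ly6c1. All cGAMP libraries of a tumour tissue were above its PBS libraries in these 3 results, while treated and untreated normal libraries overlapped. Groups of 3 libraries were too small to look for single outlying libraries.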

How the results depend on the processing

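Alternatives were a pseudocount of 0.1, no filter, a mean of at least 5 FPKM, scaling by the sum of FPKM, quantile normalization, voom on recovered reads (total reads or deposited scale), only the groups compared, the replicate number as a block, leaving out each library, a 2-fold limit and, chosen after seeing the data, scaling to the endothelial markers. Summing Ly6c1 with Ly6c2, and their ratio, were not run because Ly6c2 was not analysed here. The cause of the shifts below was not tested, except that the 2-fold limit is a stricter rule by construction.

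In implanted ECs, the cGAMP change of Ly6c1 missed the threshold under scaling by the sum of FPKM (0.36), total reads (0.31) and quantile normalization (0.14), and that of Ly6a under quantile normalization (0.28). Each of these left 1 Ly6 gene that passed, against 2 (Ly6a under the first pair of scalings, Ly6e as lower under quantile normalization), and the 2-fold limit left 0. Ly6e there turned to -0.067 (sum of FPKM), -0.12 (total reads) and -0.33 (quantile, passed). In normal ECs, Ly6a turned to -0.031 under quantile normalization and Ly6e to 0.12 under endothelial scaling.

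For the difference of effects between MMTV-PyMT and normal ECs, Ly6e turned to -0.016 (quantile), -0.042 (total reads) and -0.30 (endothelial scaling), and the genes that passed numbered 2 under quantile normalization and with only the groups compared, and 0 under endothelial scaling, against 1. Between implanted and normal ECs, Ly6e turned to -0.21 (quantile) and -0.011 (total reads), and 0 genes passed under the sum of FPKM, quantile normalization, endothelial scaling and the 2-fold limit, against 2. Between implanted and MMTV-PyMT ECs, 1 passed under quantile normalization against 0. There Ly6c1 turned to -0.16 (quantile) and -0.014 (sum of FPKM), Ly6e to -0.19 (quantile) and -0.0076 (sum of FPKM), and Ly6a to 0.0023 (endothelial scaling).

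After cGAMP, Ly6c1 in implanted against normal ECs turned to -0.48 (sum of FPKM), -0.46 (quantile) and -0.39 (total reads). The 2-fold limit left 0 genes between implanted and normal ECs and 1 between implanted and MMTV-PyMT ECs under PBS, and 1 between MMTV-PyMT and normal ECs after cGAMP, against 3 each.

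With 1 library left out, the cGAMP change ranged from -0.12 to 0.13 for Ly6a in normal ECs, from 0.29 to 0.56 for Ly6c1 and from -0.11 to 0.050 for Ly6e in MMTV-PyMT ECs. The difference of effects ranged from -0.012 to 0.15 for Ly6e and from 0.52 to 0.79 for Ly6c1 (MMTV-PyMT against normal), and from -0.25 to 0.039 for Ly6a and from -0.011 to 0.33 for Ly6c1 (implanted against MMTV-PyMT). Ly6c1 after cGAMP (implanted against normal) ranged from -0.10 to 0.22. The number passed ranged from 1 to 2 for MMTV-PyMT ECs and for their difference from normal ECs, the higher count without MMTV-PyMT cGAMP library 1.

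Pairing of libraries by replicate number was not evident: deviations of same-numbered PBS and cGAMP libraries correlated at between -0.29 and 0.26 over 9 pairs. Libraries with different numbers were not compared in this way, so the check cannot exclude pairing. With the replicate number as a block, Ly6a kept 1.05 in MMTV-PyMT and 0.93 in implanted ECs, and Ly6c1 0.63 in implanted ECs (limma adjusted p = 0.000857, 0.000581 and 0.00954), and no call of the 3 genes changed. The 18 pairs of libraries of a group differed by more than sampling noise (chi-square per gene 4.11 to 31.8).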
